A study of Mus musculus with 21 samples.

Results

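The genes described here are 8 genes of cholesterol synthesis and its control, chosen by name from the sterol pathway: Hmgcs1, Idi1, Fdft1, Sqle, Lss, Cyp51, Insig1 and Srebf2. All 8 were found among the 49315 gene identifiers of the deposited tables, and all 8 passed the filter on low counts. They were measured by RNA sequencing of mouse epidermal sheets in a series on Tfap2a and Tfap2b, which encode AP-2α and AP-2β, transcription factors of the epidermis. The libraries labelled as double conditional knockout (cDKO-labelled below) carried K14Cre with Tfap2afl/fl and Tfap2bfl/fl at 6 months of age (n = 3), and their strain-specific controls of 6 months were labelled WT (n = 3), which does not say whether they carried floxed alleles or Cre. K14Cre expresses Cre recombinase from the promoter of Krt14, a keratin gene of basal keratinocytes. In addition, 2 libraries labelled K14Cre with Tfap2bfl/fl at 3 weeks of age held counts. The other 13 of the 21 files listed every gene at 0, among them all the controls of 3 weeks. The labels number the samples of a group but do not say that each came from a separate mouse, so the p-values measure the spread between these samples.

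Cholesterol is made from acetyl-CoA through mevalonate, isoprenoid units, squalene and lanosterol. Its genes are switched on by SREBP-2, the product of Srebf2, a membrane-bound transcription factor that the escort protein SCAP carries to the Golgi for cleavage when sterols run low, and that INSIG proteins hold back in the endoplasmic reticulum when sterols are plentiful. Cells also take up cholesterol from lipoproteins. In the epidermis, cholesterol is one of the main lipids of the permeability barrier, together with ceramides and free fatty acids, and keratinocytes make much of it themselves.

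The 8 libraries held 11318181 to 17746284 counts. Control replicates 1 and 2 stood apart from the other libraries in having counts in 35794 and 39362 genes, against 23454 to 25537 in the other 6, and in 1.61 and 3.19 counts per exonic kb of odorant and vomeronasal receptor genes, against 0.0970 to 0.195. At the density of receptor genes, such counts would come to at most 3.04% of the counts of a member (Lss in control replicate 2). Tfap2a held 165, 140.3 and 210.1 CPM (the count relative to the library's total, on the usual CPM scale) in the control libraries, against 229, 213 and 309 CPM in the cDKO-labelled ones (log2 fold change 0.47, edgeR adjusted p 0.118). Leaving out control replicate 3 made it a higher call (0.72). Tfap2b held 57.3, 86.6 and 71.0 against 53.8, 57.2 and 56.9 CPM (log2 fold change -0.43, edgeR adjusted p 0.111). Counts over a whole gene need not show the loss of single exons, and here they did not show the labelled knockout. Keratinocyte markers were abundant in all 6 libraries of 6 months, at a summed 9383 to 21053 CPM for 8 basal genes.

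At 6 months, 7 of the 8 genes were lower in the cDKO-labelled libraries than in the controls, and Srebf2 was not called. Across all 17755 genes tested, 1526 (8.59%) were called lower at an adjusted p of 0.05 in edgeR's quasi-likelihood test and 1111 (6.26%) were called higher. The same 7 genes had all 3 cDKO-labelled libraries below all 3 controls, as did 16.3% of the genes tested. The median log2 fold change was -0.78 over the 8 genes and -0.035 over all genes tested. In sheets of tissue, fewer cells of a type and less RNA per cell cannot be told apart.

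Hmgcs1 (ENSMUSG00000093930, chromosome 13, 119690462 to 119708086, plus strand, GRCm38) encodes the cytosolic synthase that makes HMG-CoA, the substrate of the step that forms mevalonate. It held 819.5, 912 and 974 CPM in the control libraries (replicates 1 to 3, in order, here and below), against 501, 526 and 456 CPM in the cDKO-labelled ones. Every control thus lay far above every library of the other group, and the mean fell from 902 ± 78.0 to 494 ± 35.6 CPM (SD, n = 3 each). The change in log2 was -0.94 ± 0.13 (SE, adjusted p 0.00243 by edgeR).

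Idi1 (ENSMUSG00000058258, chromosome 13, 8885501 to 8892451, plus strand) encodes the isomerase that converts isopentenyl diphosphate to dimethylallyl diphosphate, the pair of units from which isoprenoid chains are built. It held 70.9, 76.6 and 65.2 CPM in the control libraries, against 43.7, 44.2 and 42.3 CPM in the cDKO-labelled ones, which lay close together and below all controls. edgeR gave a log2 fold change of -0.78 ± 0.14 (SE, adjusted p 0.00803). Fdft1 (ENSMUSG00000021273, chromosome 14, 63145153 to 63177793, minus strand) encodes squalene synthase, the first enzyme committed to sterols. Its controls held 145.7, 130.5 and 137.9 CPM and the cDKO-labelled libraries 88.4, 84.1 and 83.7 CPM, again without overlap. On the log2 scale the change was -0.77 ± 0.12 (SE, adjusted p 0.00504 by edgeR). The exons of Fdft1 overlap those of Ctsb on the opposite strand over 767 bases, and the use of strand in counting was not given in the sources used here.

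Sqle (ENSMUSG00000022351, chromosome 15, 59315077 to 59331192, plus strand) encodes squalene epoxidase, an oxygen-requiring and tightly regulated step. It held 314, 253.8 and 255.5 CPM in the controls, of which replicate 1 was the highest, and 189, 193 and 187 CPM in the cDKO-labelled libraries. The change in log2 was -0.61 ± 0.13 (SE, adjusted p 0.0179 by edgeR). Lss (ENSMUSG00000033105, chromosome 10, 76531588 to 76557138, plus strand) encodes lanosterol synthase, which closes the sterol rings. It held 76.4, 99.8 and 84.2 CPM in the control libraries, against 64.6, 57.8 and 66.0 CPM in the cDKO-labelled ones, the narrowest gap of the 7 genes in proportion to its level. For Lss edgeR gave a log2 fold change of -0.54 ± 0.15 (SE, adjusted p 0.0392). Its exons overlap those of 4930483K19Rik on the opposite strand over 381 bases. Cyp51 (ENSMUSG00000001467, chromosome 5, 4081145 to 4104746, minus strand) encodes lanosterol 14α-demethylase, the cytochrome P450 that begins the trimming of lanosterol. Control replicate 1 was highest here too, at 356 CPM beside 265 and 286, and the cDKO-labelled libraries held 164, 172 and 153 CPM. edgeR gave a log2 fold change of -0.97 ± 0.15 (SE, adjusted p 0.00401). Its exons overlap those of Akap9 on the opposite strand over 166 bases.

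Insig1 (ENSMUSG00000045294, chromosome 5, 28071363 to 28078662, plus strand) encodes an endoplasmic reticulum protein that retains the SCAP and SREBP complex and is itself a target of SREBP. It held 84.2, 73.3 and 51.0 CPM in the control libraries, against 31.5, 25.4 and 27.0 CPM in the cDKO-labelled ones. The controls were spread more widely than for any other of the 8 genes in proportion to their mean, and the groups did not overlap. Insig1 had the largest of the 8 changes, a log2 fold change of -1.39 ± 0.21 (SE), with an adjusted p of 0.00360 by edgeR, to 40.3% of the control mean. Srebf2 (ENSMUSG00000022463, chromosome 15, 82147266 to 82205376, plus strand) encodes the transcription factor itself. It held 269, 285 and 240 CPM in the control libraries, against 249.99, 247 and 243 CPM in the cDKO-labelled ones, so that the groups overlapped. Its log2 fold change of -0.18 ± 0.13 (SE), with an adjusted p of 0.359 by edgeR, was not past the threshold, and a transcript count does not measure the cleaved protein.

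**Figure D1:**
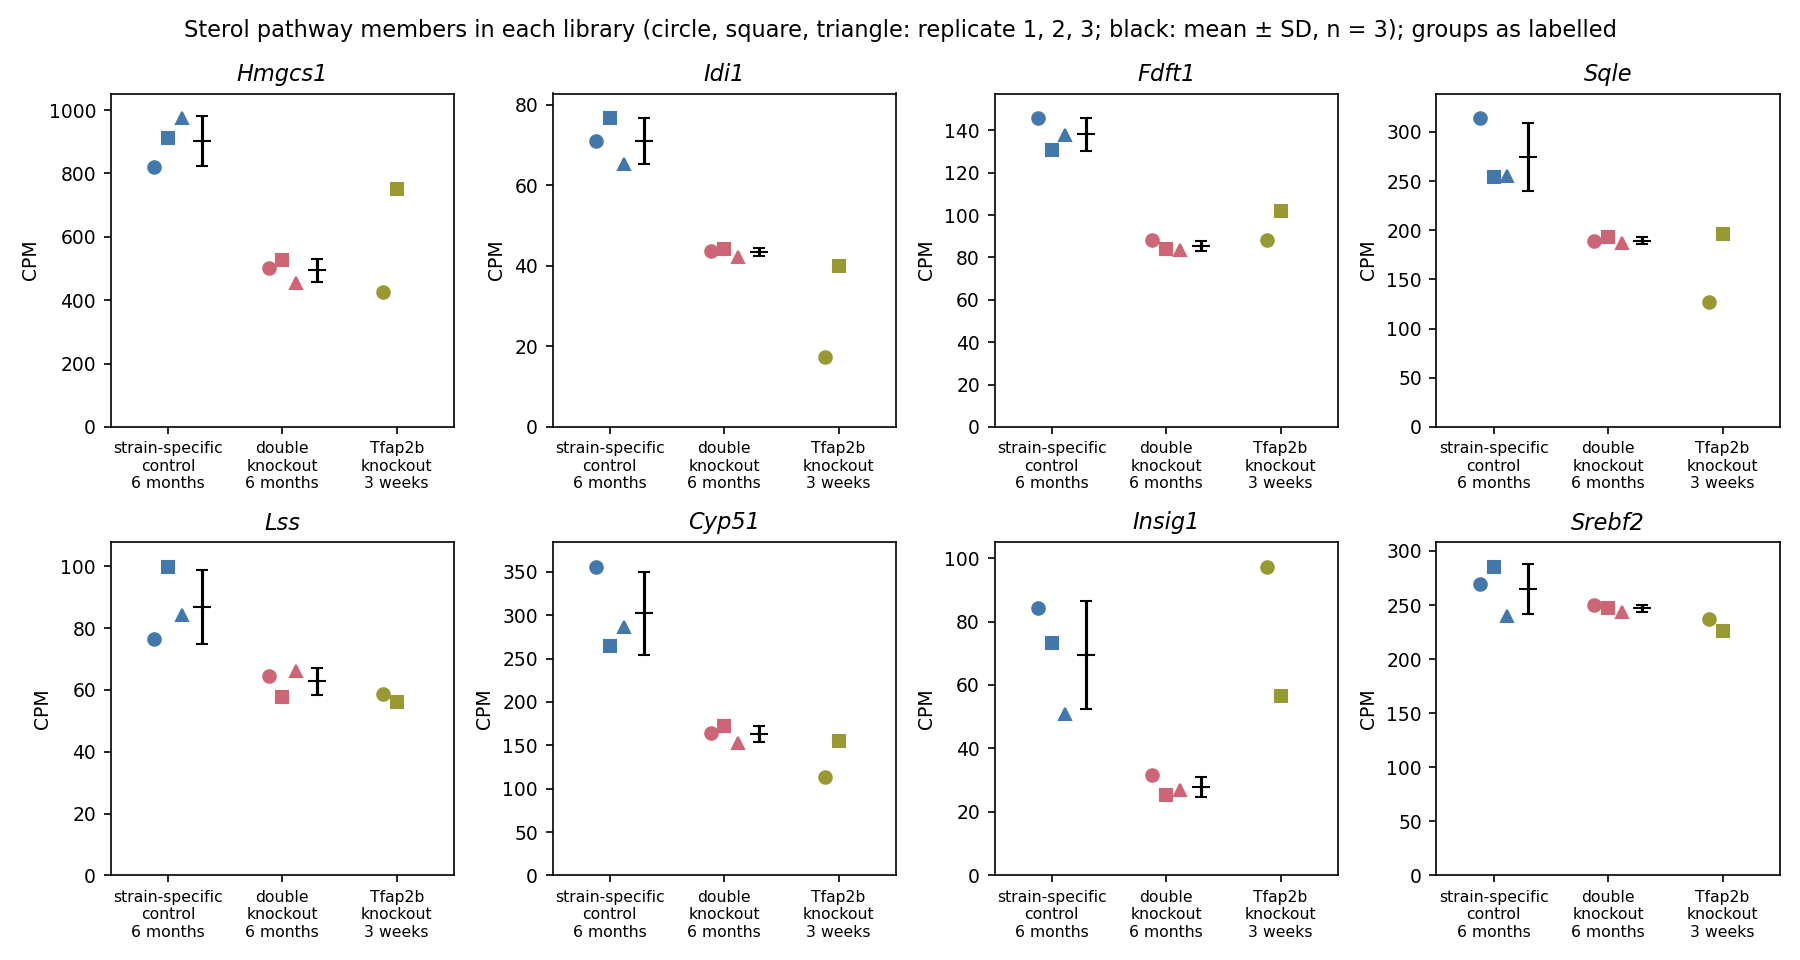
CPM of each of the 8 genes (vertical axes, from 0) in the 3 strain-specific controls and the 3 cDKO-labelled libraries at 6 months and the 2 libraries labelled Tfap2b knockout at 3 weeks, with replicates by marker shape and mean ± SD (n = 3) in black. In 7 panels every control lies above every library labelled double knockout, and for Srebf2, at 240 to 285 against 243 to 249.99 CPM, the groups overlap.

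The starts of these genes are shown because the libraries come from mice with targeted AP-2 genes and because 7 of the 8 genes were lower together. Promoters from 250 bases before to 50 after the RefSeq start (GRCm38.p6) were found for 6 of the 8: Hmgcs1, Idi1, Lss, Cyp51, Insig1 and Srebf2. They were searched on both strands for TCACNCCAC, a form of the sterol regulatory element that SREBP binds, for CCAAT, the box bound by NF-Y, a common partner of SREBP, and for GCCNNNGGC, the half-site pair bound by AP-2 proteins. CCAAT or its complement was in all 6, and in 37.4% of the 32851 promoters in the table. TCACNCCAC was in 1 of the 6, Hmgcs1, where it begins 137 bases before the start, and in 1.24% of all promoters. Other forms of the sterol element were not searched, so a promoter without this match may still hold one. GCCNNNGGC was in Hmgcs1, Idi1 and Srebf2, and in 16.6% of all promoters, and in Hmgcs1 and Idi1 the match overlapped a CCAAT box. A match is a run of letters and was not tested for binding. The promoters of Hmgcs1 (chr13:119690101-119690400, plus strand), Idi1 (chr13:8885356-8885655, plus strand), Insig1 (chr5:28071162-28071461, plus strand), the gene with the largest fall, and Srebf2 (chr15:82147019-82147318, plus strand), which was not called, read as follows 5′ to 3′, with CCAAT boxes, on the complementary strand ATTGG, and the sterol element of Hmgcs1 in capitals.
Hmgcs1: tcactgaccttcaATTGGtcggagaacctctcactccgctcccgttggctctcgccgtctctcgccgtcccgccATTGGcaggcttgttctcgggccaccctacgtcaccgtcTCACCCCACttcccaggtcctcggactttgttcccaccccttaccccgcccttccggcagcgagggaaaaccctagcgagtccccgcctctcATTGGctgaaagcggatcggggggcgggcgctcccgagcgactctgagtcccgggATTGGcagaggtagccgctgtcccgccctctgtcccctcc
Idi1: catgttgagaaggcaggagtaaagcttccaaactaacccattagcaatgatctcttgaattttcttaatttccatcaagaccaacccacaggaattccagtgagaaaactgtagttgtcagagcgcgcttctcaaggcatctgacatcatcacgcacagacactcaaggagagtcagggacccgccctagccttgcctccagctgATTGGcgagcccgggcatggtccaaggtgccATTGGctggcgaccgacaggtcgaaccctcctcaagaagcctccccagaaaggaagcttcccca
Insig1: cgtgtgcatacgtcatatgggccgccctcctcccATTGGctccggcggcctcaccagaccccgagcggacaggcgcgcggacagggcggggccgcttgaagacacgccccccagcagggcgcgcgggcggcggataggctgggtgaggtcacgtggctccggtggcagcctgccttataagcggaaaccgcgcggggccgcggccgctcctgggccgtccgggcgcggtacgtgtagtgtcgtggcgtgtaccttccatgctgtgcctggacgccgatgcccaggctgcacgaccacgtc
Srebf2: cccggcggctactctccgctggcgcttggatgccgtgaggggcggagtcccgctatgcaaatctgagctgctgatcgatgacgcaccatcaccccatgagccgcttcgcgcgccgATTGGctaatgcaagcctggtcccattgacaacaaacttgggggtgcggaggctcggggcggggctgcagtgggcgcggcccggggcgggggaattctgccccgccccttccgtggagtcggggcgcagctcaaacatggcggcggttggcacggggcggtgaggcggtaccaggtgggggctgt

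Without control replicates 1 and 2 together, which leaves 1 control whose spread is assumed to be that of the other group, 3 of the 8 genes were called lower: Hmgcs1 (-1.04), Fdft1 (-0.75) and Cyp51 (-0.87). Insig1 was then at -0.92 (edgeR adjusted p 0.0607), Idi1 at -0.64, Sqle at -0.49 and Lss at -0.48, all no longer past the threshold, and Srebf2 was at -0.014. In the 6 fits that left out 1 library, Hmgcs1, Fdft1, Cyp51 and Insig1 were called lower each time. Idi1 lost the threshold without cDKO-labelled replicate 1 (-0.73). Sqle lost it without cDKO-labelled replicate 1, 2 or 3 (-0.55, -0.58 and -0.57), and so did Lss (-0.51, -0.45 and -0.55), which also lost it without control replicate 2 (-0.43).

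**Figure D2:**
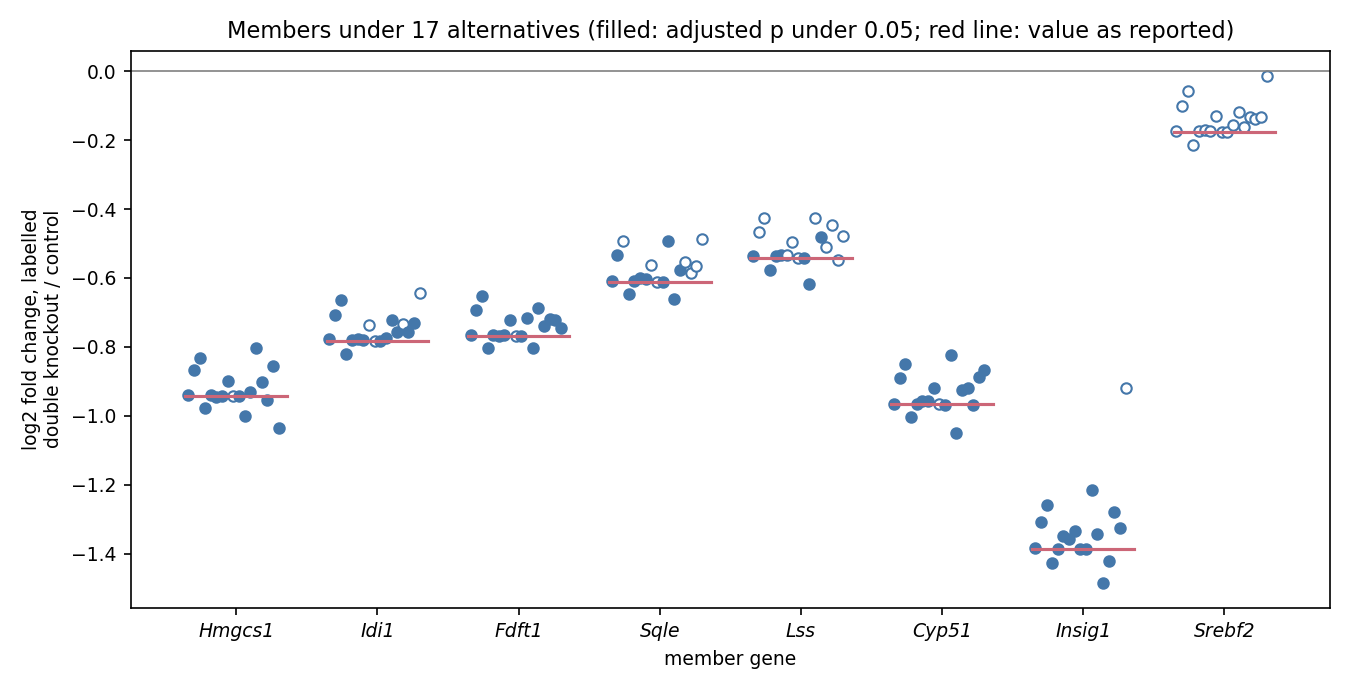
Log2 fold change of each of the 8 genes at 6 months (vertical axis) as reported (red line) and under 17 alternatives (points, filled where the adjusted p was under 0.05). All values are below 0, Insig1 is lowest at -1.39 as reported, the points of Srebf2 are open throughout, and among the 7 called genes those of Lss and Sqle are most often open, in 10 and 7 of 17 alternatives.

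Levels between genes were compared per kb of exonic length, as CPM per kb. In the controls Hmgcs1 was by far the most abundant of the 8, at 279 ± 24.1 CPM per kb (SD, n = 3). Cyp51 followed at 68.5 ± 10.8, then Srebf2 at 53.1 ± 4.63, Sqle at 49.5 ± 6.18 and Fdft1 at 48.3 ± 2.67. Sqle differed from Srebf2 and from Fdft1 by less than their SDs. Insig1 (22.5 ± 5.48) and Idi1 (20.2 ± 1.62) also differed by less than the spread of Insig1, and Lss was lowest at 8.05 ± 1.11. In the cDKO-labelled libraries the order changed in that Srebf2, at 49.5 ± 0.664 CPM per kb, stood above Cyp51 at 36.9 ± 2.20, and Idi1, at 12.4 ± 0.291, above Insig1 at 9.05 ± 1.02, while Sqle (34.2 ± 0.579) lay within about the spread of Cyp51. The exonic length sums all annotated exons, which understates the level of a gene such as Lss, with 10787 bases, if its longest exons are rarely used.

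**Figure D3:**
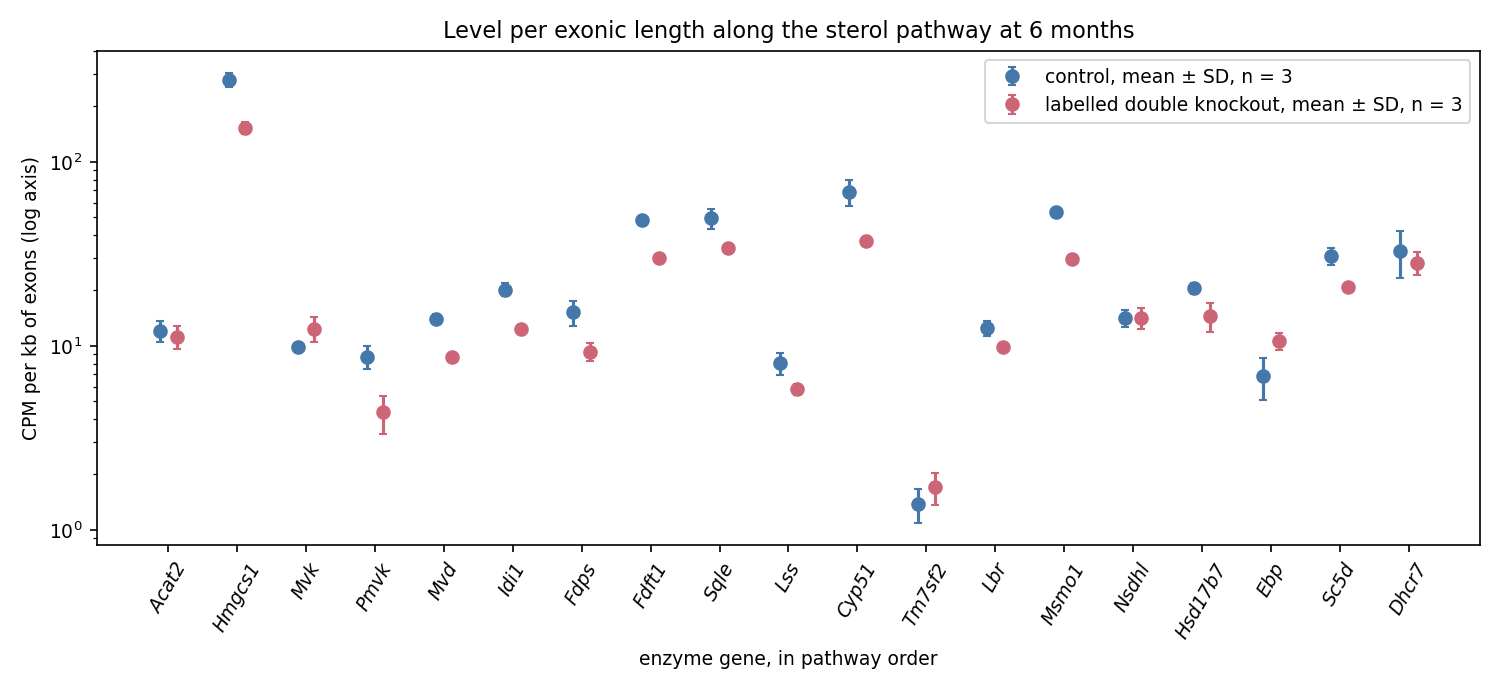
Mean CPM per kb of exons ± SD (n = 3, log axis) of sterol synthesis genes in the order of the pathway, in controls and in cDKO-labelled libraries at 6 months. Hmgcs1 stands highest in both groups, at 279 and 153 CPM per kb, and Tm7sf2 lowest, at 1.38 and 1.70.

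The other genes of the pathway were taken from lists by name. Of all genes tested, 8.59% were called lower and 6.26% higher. Of the 21 enzymes from acetyl-CoA to cholesterol, 6 are among the 8 genes above, so their values are counted again here. Of the 21, 13 were called lower and none was called higher, and the median log2 fold change was -0.61. A negative value was found in 18 of the 21, and in 9270 of all 17755 genes tested. The 15 enzymes outside the 8 genes gave 7 lower calls and 8 not called, with a median of -0.42. The summed level of the 21 was 2988 to 3189 CPM in the controls and 1897 to 2011 CPM in the cDKO-labelled libraries, with no overlap. Most of these counts were in Hmgcs1, 1 of the 8 genes, and Msmo1. The 15 enzymes outside the 8 summed to 1240 to 1406 CPM in the controls and 897 to 934 CPM in the cDKO-labelled libraries. Outside the 8 genes, those called lower included Pmvk, Mvd, Fdps, Msmo1, Hsd17b7 and Sc5d. Msmo1, the methylsterol oxidase that acts later than Cyp51, held 344, 313 and 327 against 188.5, 173 and 185 CPM (log2 fold change -0.92 ± 0.12 SE, adjusted p 0.00190 by edgeR). Both groups were tight and far apart for Msmo1.

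Not every enzyme was called. Pmvk and Mvd, a kinase and the decarboxylase on the way from mevalonate to isopentenyl diphosphate, had log2 fold changes of -1.07 and -0.77. Mvk, the kinase that acts before Pmvk, was at 0.25 (edgeR adjusted p 0.351). Fdps, which joins isoprenoid units to farnesyl diphosphate, was at -0.78, Hsd17b7 at -0.58 and Sc5d, a desaturase near the end of the pathway, at -0.63. Among late enzymes not called, Nsdhl held 45.1, 38.4 and 37.2 CPM in the control libraries, against 38.5, 36.6 and 46.5 CPM in the cDKO-labelled ones, a difference smaller than the spread. Dhcr7, a sterol reductase, was at -0.29, and Ebp, the sterol isomerase, was at 0.55 (edgeR adjusted p 0.138). In Mvk and Ebp all cDKO-labelled libraries lay above all controls, as in 22.5% of the genes tested. Without 1 library at a time, the number of enzymes called lower lay between 5, without cDKO-labelled replicate 1, and 13. It was 8 without control replicate 2, 7 without cDKO-labelled replicate 2 or 3 and 4 without control replicates 1 and 2. Msmo1 passed in all 6 of the fits that left out 1 library, Fdps and Sc5d lost the threshold in 3 of them, Pmvk and Mvd in 4 and Hsd17b7 in 5.

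Of 5 genes that process SREBP, 1 was called, and it was higher, as were 6.26% of all genes tested. Scap, the sterol-sensing escort of SREBP, held 87.8, 103 and 111 CPM in the control libraries, against 164, 165 and 161 CPM in the cDKO-labelled ones (log2 fold change 0.63 ± 0.13 SE, adjusted p 0.0140 by edgeR). It lost the threshold without cDKO-labelled replicate 1 (0.67) or 2 (0.65). Insig2, the paralog of Insig1, was at -0.11 (edgeR adjusted p 0.721), the proteases Mbtps1 and Mbtps2 at 0.54 and 0.27, and Srebf1, whose product governs fatty acid synthesis, at -0.27 (edgeR adjusted p 0.371).

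Uptake genes went both ways. Of 11 genes for lipoprotein uptake and transport within the cell, 10 were tested, 2 were called lower and 1 higher, with a median of 0.21. Over all genes tested, 8.59% were called lower and 6.26% higher. Stard4, a sterol carrier gene of the SREBP target group, held 115, 149 and 138 CPM in the control libraries, against 60.9, 58.6 and 58.0 CPM in the cDKO-labelled ones (log2 fold change -1.25 ± 0.14 SE, adjusted p 0.00102 by edgeR), and passed in all 17 alternatives. Lrp8, a lipoprotein receptor better known in brain, had 10.2 ± 1.86 CPM in the controls and 25.7 ± 9.58 CPM in the cDKO-labelled libraries (SD, n = 3 per group), a difference of 1.24 ± 0.28 (SE) in log2 (adjusted p 0.0189 by edgeR), and lost the threshold without control replicate 1 (1.21) or cDKO-labelled replicate 1 (0.96). Vldlr, its close relative, was at 1.33 (edgeR adjusted p 0.0501), with 32.1 CPM in cDKO-labelled replicate 3 against 10.9 and 13.2 in the other 2, and passed in 6 of 17 alternatives, namely both other size factors, no filter, DESeq2, removal of the 20 most abundant genes, and without replicate 1 of them (1.65). Without replicate 3 of them it was at 0.72.

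**Figure D4:**
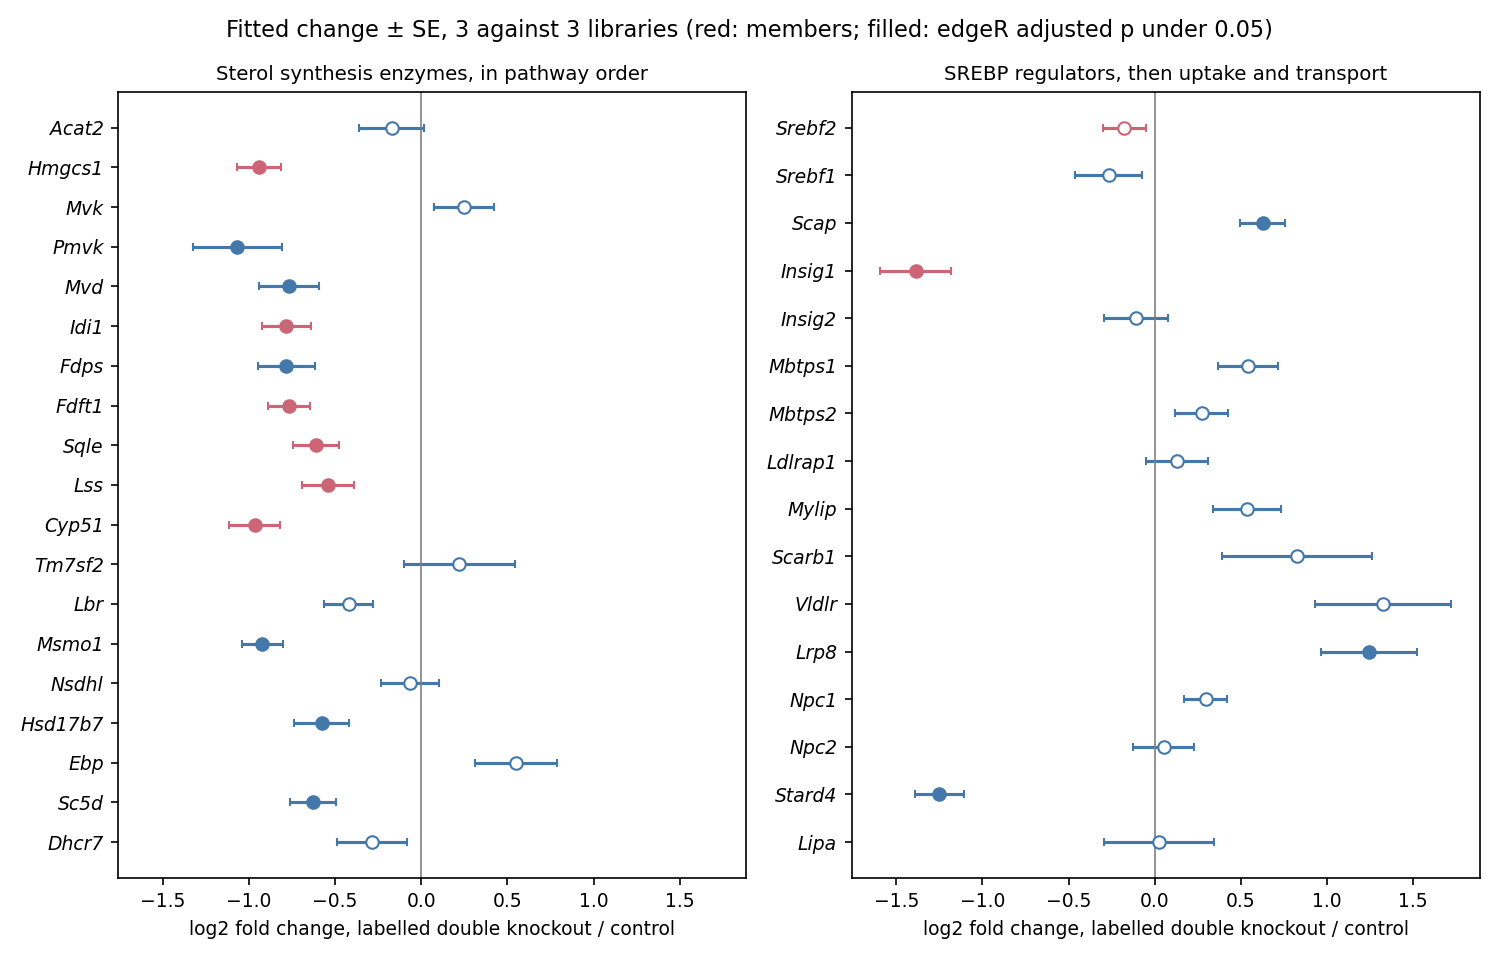
Log2 fold change ± SE (horizontal axes, 3 against 3 libraries at 6 months) of sterol synthesis enzymes in pathway order and of genes for SREBP processing, uptake and transport; the 8 genes chosen are red and those past the adjusted threshold are filled. Filled enzymes all lie left of 0, from Lss at -0.54 to Pmvk at -1.07, and on the right Stard4 and Insig1 lie at -1.25 and -1.39, opposite Scap at 0.63 and Lrp8 at 1.24.

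Of 9 genes for efflux, esterification and oxysterols, 2 were called higher and 1 lower, with a median of 0.014. The shares of all genes tested were 6.26% higher and 8.59% lower. Cyp27a1, the sterol 27-hydroxylase, rose to 32.8 ± 4.37 from 9.13 ± 1.57 CPM (SD, n = 3 per group), a difference of 1.75 ± 0.21 (SE) in log2 (adjusted p 0.00130 by edgeR), and passed in all 17 alternatives. Apoe, the apolipoprotein that carries cholesterol between cells, rose from 344 ± 9.31 to 652 ± 176 CPM (log2 fold change 0.85 ± 0.19 SE, adjusted p 0.0194 by edgeR), and lost the threshold without control replicate 1 (0.85) or 2 (0.87). Ch25h, which makes 25-hydroxycholesterol, fell from low counts, with 68, 18 and 84 in the controls and 6, 0 and 3 in the cDKO-labelled libraries (fitted log2 fold change -3.75 ± 0.89 SE, adjusted p 0.0121 by edgeR). Abca1, the efflux pump, was at 0.68 (edgeR adjusted p 0.0859). The lowest value of the list in a gene not called was that of Nr1h3, the oxysterol receptor LXRα, at -1.72 (edgeR adjusted p 0.164). It rests on few counts that overlapped, 26, 39 and 4 in the controls and 3, 7 and 15 in the cDKO-labelled libraries.

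Of 10 genes for prenylation, dolichol and ubiquinone, 1 was called higher, beside 6.26% of all genes tested. It was Fntb, a farnesyltransferase subunit gene (0.72, edgeR adjusted p 0.0350), which lost the threshold without any 1 library except control replicate 3 (0.67 to 0.82). Ggps1 had the lowest value of that list, -0.67 (edgeR adjusted p 0.0548), and passed without control replicate 3 (-0.74). Of 10 genes of fatty acid synthesis, 3 were called lower and none higher, and 7 had all cDKO-labelled libraries below all controls, with a median of -0.53, beside the 8.59% and 16.3% of all genes tested. Scd2, a stearoyl-CoA desaturase gene, held 217, 187 and 242 CPM in the control libraries, against 80.8, 108 and 67.2 CPM in the cDKO-labelled ones (log2 fold change -1.41 ± 0.18 SE, adjusted p 0.00190 by edgeR). Me1, malic enzyme, was at -1.47 (edgeR adjusted p 0.00441) and Acss2, acetyl-CoA synthetase, at -0.92 (edgeR adjusted p 0.0353), which lost the threshold without any 1 library except control replicate 3 (-0.70 to -0.91). Fasn, Acaca and Acly, which carry the main flux into fatty acids, were at -0.19, -0.29 and -0.17 and were not called. The highest value of the list was that of Fads1, 0.65 (edgeR adjusted p 0.135).

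Some marker lists of cell types held called genes, beside 8.59% of all genes tested called lower and 6.26% called higher. Of 12 sebaceous gland markers, a cell type rich in lipid synthesis, 9 were tested and 3 were called lower, with a summed level of 1052 to 1190 CPM in the controls and 362 to 459 CPM in the cDKO-labelled libraries. None of the 12 was at 0 in all 6 libraries, and Scd1 and Dgat2 had the most counts. Scd1 alone held 718, 848 and 775 against 186, 224 and 168 CPM. The 3 called were Scd1, Dgat2 and Plin2, and 8 of the 9 tested had a negative log2 fold change. The other, Awat2, was at 0.58 (edgeR adjusted p 0.396), with all cDKO-labelled libraries above all controls. Of 7 dermal fibroblast markers, 4 were called lower, at a summed 58.4 to 168 against 13.3 to 24.9 CPM, with most counts in Col1a1 and Col1a2. Of 8 proliferation markers, 6 were called higher, at a summed 150 to 241 against 387 to 517 CPM, with most counts in Mki67 and Top2a. Of 8 basal keratinocyte markers, 6 were called higher, at a summed 9383 to 11974 against 17677 to 21053 CPM, with most counts in Krt5 and Col17a1. Krt14 had the highest log2 fold change among them (1.71), and Krt15 had the only negative one (-1.39, edgeR adjusted p 0.0513). Of 9 suprabasal and granular markers, 1 was called higher and 2 lower, and their sum overlapped between the groups. Of 8 Langerhans and myeloid markers, 1 was called lower, of 10 hair follicle markers, 8 tested, 1 was lower, and of 5 skeletal muscle markers, 2 tested, 1 was lower. The T cell, adipocyte, endothelial and red blood cell lists held no called gene, and adipocyte markers summed to at most 18.5 CPM. The part of these markers in the lower sterol genes was not tested.

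In the 2 libraries labelled Tfap2b knockout at 3 weeks, no control of that age was analysed, and age and genotype cannot be told apart against the libraries of 6 months. Hmgcs1 held 426 and 751 CPM in replicates 1 and 2, Sqle 127 and 196, Cyp51 114 and 155, Fdft1 88.3 and 102, and Lss 58.5 and 56.1. Replicate 1 was thus below every other library in Hmgcs1, Sqle, Cyp51 and Idi1, and both were below all 3 controls of 6 months in 7 of the genes, all but Insig1. Idi1 was at 17.3 and 39.9 CPM. Insig1 went the other way between the pair, at 97.3 CPM in replicate 1, the highest of all 8 libraries, and 56.6 in replicate 2, and Srebf2 was at 237 and 226. Replicate 1 also held 2633 CPM in the 7 dermal fibroblast markers, 3360 in the 6 adipocyte markers and 9131 in the 12 sebaceous markers, against 17.5, 1.84 and 884 in replicate 2. The part of these in its sterol values was not tested.

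Genes with profiles most like the mean of the 8 were sought over the 8 libraries, as Pearson's r of log2(CPM + 1), among 9084 tested genes of at least 10 mean CPM. The 5 with the highest r were Tnnt2 (0.982), Spink5 (0.981), Lonrf1 (0.976), Cwc25 (0.970) and Aff4 (0.965). Spink5, a protease inhibitor gene of the granular layer, held 1438, 1267 and 1191 CPM in the control libraries, against 641, 728 and 658 CPM in the cDKO-labelled ones. The 5 with the lowest r were Sh3pxd2a (-0.981), Aup1 (-0.979), Dtx2 (-0.974), Epn1 (-0.973) and Psmd3 (-0.971). Aup1, which has a part in protein degradation at the endoplasmic reticulum and in lipid droplets, held 27.7, 30.7 and 33.1 against 51.2, 52.0 and 50.9 CPM. Of the sterol genes outside the 8, Msmo1 (0.947) ranked 20 among the 9084. The libraries share their groups, so these coefficients mostly restate the difference between groups and are a description only.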

How the data were processed

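Total RNA from epidermal sheets, depleted of ribosomal RNA, was sequenced with paired-end reads, per the labels' protocols. The deposited values are whole-number counts per gene, not normalized. The submitters' processing notes name Trimmomatic 0.36, STAR 2.5.2b, featureCounts of Subread 1.5.2 and the builds GRCh38 and GRCm38. How strand and multiply mapping reads were treated was not given in the sources used here. A symbol was found for 48970 of the 49315 identifiers (99.3%). The position of 44858 was identical in GENCODE M21 (GRCm38), among them 5 of the 8 members. Coordinates are those of the files.

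CPM was computed here from the total counts of each library. The 6-month groups were compared by the quasi-likelihood F test of edgeR 4.0.16 (R 4.3.3) after filterByExpr and TMM scaling, with robust dispersions and a prior count of 2. Adjusted p-values are Benjamini-Hochberg values over the 17755 genes tested, called at 0.05. SEs came from the unshrunken coefficient and F. The procedure was tried on simulated counts with 4-fold changes in 200 genes, larger than the changes of the members. It called 122 of the 189 changed genes tested (64.6%), with 0 in the wrong direction and 13 false calls. The recovery of changes as small as those of the members was not tested. The members and gene lists were chosen with earlier results of these data known. The text names all 8 members and, of each pathway list, genes past the threshold, those with the highest and lowest fold change, and Srebf1, except for some genes of these lists that are not reported here by name, though the counts and medians include them. Others (Mvk, Nsdhl, Dhcr7, Insig2, Mbtps1, Mbtps2, Abca1, Nr1h3, Tm7sf2, Fasn, Acaca and Acly) were named after their values were seen, as genes that were not called. Alternatives were other size factors, filters, DESeq2 1.42.0, limma-voom (limma 3.58.1), the replicate number as a block, all 8 libraries in one fit, a test against a fold change of 1.5, removal of the 20 most abundant genes, and libraries left out. The depth of 11318181 to 17746284 counts gives each member at least 224 counts in every library. No intervals of counting error are given, because PCR reads without molecular identifiers are not independent molecules.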

Additional observations from a re-analysis of the deposited data

How the results depend on the processing

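All 8 members kept a negative log2 fold change in all 17 alternatives. Of the 8, 7 were called lower as reported, between 4, without cDKO-labelled replicate 1, and 7 in the 6 fits that each left out 1 library, 3 without control replicates 1 and 2, 4 with all 8 libraries in one fit, and 1, Insig1, against a fold change of 1.5. No member was called higher under any alternative. The count of all genes called was 2637 as reported, 4809 without a filter, 1546 with all 8 libraries, 585 against a fold change of 1.5 and 437 without control replicates 1 and 2. It ran from 668, without cDKO-labelled replicate 1, to 7542, without control replicate 3, when 1 library was left out. Without a filter the median log2 fold change of all genes was -0.56 and 5 members were called lower, Sqle (-0.49) and Lss (-0.42) no longer. Scaling by library totals alone gave 1414 higher and 1297 lower calls, against 1111 and 1526 as reported, and Lss (-0.47) lost the threshold. Deviations from the group mean correlated over genes at 0.027, -0.16 and -0.059 between same-numbered libraries. Between differently numbered ones they ran from -0.11 to 0.17. With 3 libraries per group this cannot decide whether same-numbered libraries share more than a number. The replicate block gave 1729 genes and 6 members called lower, Lss (-0.53) no longer. The fold change of Srebf1 lay between -0.46 and 0.011 when 1 library was left out, and changed sign (0.011) without control replicate 3. Without control replicates 1 and 2, the called enzymes outside the members except Msmo1, and also Scap, Lrp8, Ch25h, Me1, Apoe, Fntb and Acss2 lost the threshold. The cause of these changes was not tested. The enzymes called lower, 13 as reported, were 8 without a filter or with all 8 libraries and 0 against a fold change of 1.5. The number of members with each motif was the same when only the bases before the start were searched.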

Other observations

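Ratios of counts within a library do not depend on its scaling. The ratio of Hmgcs1 to Srebf2 counts was 3.04, 3.20 and 4.06 in control replicates 1 to 3 and 2.00, 2.13 and 1.87 in the cDKO-labelled libraries. That of Insig1 to Srebf2 was 0.313, 0.257 and 0.213 against 0.126, 0.103 and 0.111. In neither ratio, chosen after the values were seen, did the groups of 6 months overlap. This mostly restates the values above, since Hmgcs1 and Insig1 did not overlap and Srebf2 was at 93.2% of its control mean. In replicates 1 and 2 labelled Tfap2b knockout at 3 weeks, the ratio to Srebf2 was 1.80 and 3.32 for Hmgcs1. For Insig1 it was 0.41 and 0.25. The ratio of Insig1 to Insig2, per exonic length, was 2.35, 2.40 and 1.12 in the controls and 0.922, 0.769 and 0.645 in the cDKO-labelled libraries. It was 4.16 and 1.98 in replicates 1 and 2 labelled Tfap2b knockout at 3 weeks.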
